A study of Equus caballus with 68 samples.

Results

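The levels of 9 genes of blood stem cells, progenitors and megakaryocytes were followed in bone marrow mononuclear cells (BMNC) kept in joint fluid. The genes were *CD34*, *KIT* and *PROM1*, which encode surface proteins of progenitors, the transcription factor genes *GATA2*, *MEIS1*, *HOXA9* and *ERG*, and the platelet receptor genes *ITGA2B* and *GP9*. They were chosen by symbol, and each symbol matched 1 of the 30371 genes listed. BMNC of 8 adult Thoroughbred horses (6 geldings and 2 females, 3 to 9 years old) were sequenced before culture (0 hours, n = 8) and after culture in 1 of 2 fluids of the same horse. SF was normal synovial fluid. ISF was inflamed synovial fluid, drawn after lipopolysaccharide had been injected into the joint, and it was freed of its own cells, as SF was. Cultures were harvested at 48 and 96 hours and at 6 and 10 days. A fluid had 8 horses at 96 hours as well as at 6 days, and 7 at the first and last harvest, each horse giving 1 library. Moon had no library at 48 hours and Flash none at 10 days. Each library came from the cells of a culture well at harvest, after its medium had been drawn off, so that floating cells may be missing from it. Fluid and cells were those of the same horse in every culture, with no culture in another medium.

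Marrow stem cells and progenitors carry CD34, a sialomucin, KIT, the receptor of stem cell factor, and PROM1 (CD133), a membrane glycoprotein of cell protrusions. GATA2, ERG, HOXA9 and its partner MEIS1 keep such cells undifferentiated and decline as most lineages mature. ITGA2B (CD41) pairs with ITGB3 to form the platelet fibrinogen receptor, and GP9 (CD42a) belongs to the platelet receptor for von Willebrand factor, together with GP1BA, GP1BB and GP5. CD34 and ERG are also made by endothelial cells, and KIT and GATA2 by mast cells.

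Levels are given in GeTMM, in which the authors divided reads by gene length and scaled libraries to each other, so that they can be compared between genes and libraries. A library held 15.7 to 36.0 M reads on genes (median 22.3), and 1 read on a gene of 1 kilobase was worth 0.0337 to 0.0979 GeTMM. All 9 genes passed the filter of 0.5 GeTMM in at least 7 of the 68 libraries. *GATA2* and *MEIS1* reached 0.5 GeTMM in only 8 libraries each, of which 5 were at 0 hours, so that both were tested mainly because of their level before culture. The SF library of Moon at 6 days stood apart, at a root mean square distance of 1.52 (log2) from its group median against at most 0.61 in the other 67. By genes that differ between horses, 66 of the 68 libraries lay nearest to the horse on their label, and those from ISF at 96 hours labelled Dealings and Dreamer lay nearest to each other's. The labels were kept, and results that change without these 3 libraries are given beside the values. At 0 hours the libraries held the marker genes of the cells that the BMNC label implies. The summed level of 6 neutrophil precursor genes was 11356 to 20997 GeTMM, that of 4 erythroid genes 76.2 to 1230, of 5 T cell genes 127 to 321 and of 4 B cell genes 56.1 to 158. Macrophage genes (7 summed) were at 184 to 307 GeTMM at 0 hours and at 29897 to 82485 at 10 days over both fluids.

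All 9 genes were lower after 10 days than before culture in both fluids, as were 38.4% of all genes in ISF and 34.9% in SF. At 48 hours 8 of them in ISF and 9 in SF were called lower (27.4% and 23.1% of all genes), by the threshold given below. The loss was deepest for *GP9*, whose mean at 10 days was 0.965% of its 0 hour mean in ISF and 3.11% in SF. In ISF the means at 10 days were 34.5% of those at 0 hours for *PROM1*, 21.6% for *MEIS1*, 20.9% for *ITGA2B* and 17.4% for *CD34*. In SF *PROM1* was at 12.7% and *CD34* at 20.5%. The 2 fluids differed for *ITGA2B* and *GP9*, which were lower in ISF at 6 days, when 30.2% of all genes differed (13.6% lower in ISF). Whether fewer cells expressed a gene or each cell held less of its RNA cannot be told apart in bulk libraries. Each of the 9 genes had its highest mean at 0 hours. For *GATA2* and *MEIS1* the filter favoured this in advance, since both passed it only with their 0 hour libraries. The step from 0 hours to the next highest group mean was larger than the larger SD of the 2 groups for 8 of 9 genes, *MEIS1* included and *GATA2* being the exception. Neither count was made over all genes, so that no share stands beside them. None of the 63 later steps in the order of the group means was larger than that spread, so that no order among the cultured groups is read from the means. These steps set only neighbouring means side by side, and means further apart can still differ.

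**Figure D1:**
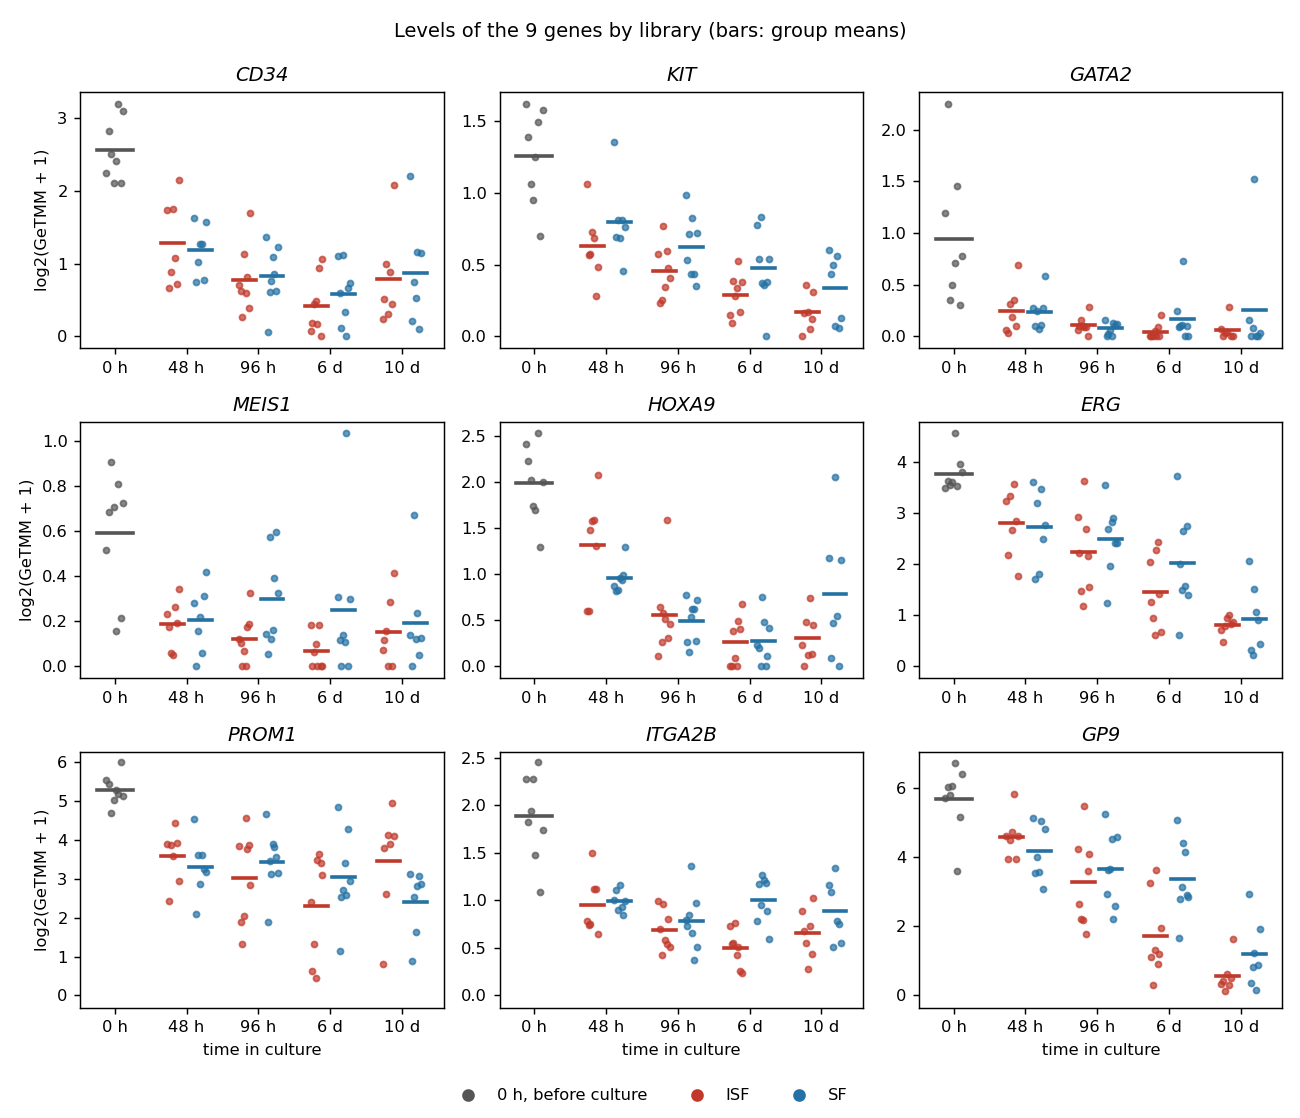
Level of each gene in every library as log2(GeTMM + 1) (vertical axis) by time in culture (horizontal axis), with libraries before culture in grey, ISF cultures in red and SF cultures in blue, and a bar at each group mean. Levels at 0 hours lie above most cultured libraries in every panel, and the mean of *GP9* at 10 days is 0.564 GeTMM in ISF and 1.82 in SF.

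The question of the first comparison was whether the genes persist as marrow cells enter culture. In ISF 8 of the 9 genes fell between 0 and 48 hours (27.4% of all 14570 genes tested fell), and in SF all 9 fell (23.1% of all genes). A gene is called, and said to rise or fall, at a false discovery rate (FDR) under 0.05 in a limma fit of all libraries on log2(GeTMM + 1). The median log2 fold change of the 9 genes was -0.93 in ISF and -1.03 in SF, against -0.03 and -0.01 over all genes. From 0 hours to 10 days all 9 fell in ISF (38.4% of all genes) and all 9 in SF (34.9%), with a median of -1.68 and -1.21. Both fluids share the 0 hour libraries, so that these are not independent results. *GATA2* and *MEIS1* passed the filter only with their 0 hour libraries, which favours a fall, and the counts and medians here include them. The other 7 genes would pass on the cultured libraries alone. Because 1 is added before the logarithm, these changes understate the loss of the genes at low levels.

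*CD34* was at 3.33 to 8.19 GeTMM at 0 hours (median 4.51). At 48 hours it was at 0.581 to 3.42 in ISF (median 1.11) and at 0.675 to 2.1 in SF (median 1.41). Every SF library, and 6 of 7 ISF libraries, lay below the lowest library at 0 hours, the exception being RimRun. The log2 fold change was -1.28 ± 0.25 (SE) in ISF (FDR = 1.93e-05) and -1.38 ± 0.25 in SF (FDR = 6.6e-06). The lowest group mean, 0.385 ± 0.409 GeTMM (SD, n = 8), was that of ISF at 6 days. At 10 days *CD34* was at 0.174 to 3.24 in ISF (median 0.429) and at 0.0744 to 3.6 in SF (median 0.681). RimRun was highest in ISF, and Catnip was highest in SF and the only horse within the range of the 0 hour libraries. Against 0 hours the log2 fold change was -1.78 ± 0.25 in ISF (FDR = 5.95e-09) and -1.69 ± 0.25 in SF (FDR = 2.95e-08).

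*KIT* was low before culture, at 0.625 to 2.08 GeTMM (median 1.5). It was at 0.217 to 1.09 at 48 hours in ISF (median 0.489) and at 0.37 to 1.56 in SF (median 0.698), and both groups overlapped with the 0 hour libraries. The fall was 0.63 ± 0.12 (SE) on the log2 scale in ISF (log2 fold change -0.63, FDR = 1.71e-05) and 0.46 ± 0.12 in SF (-0.46, FDR = 0.00155). By 10 days it was at 0 to 0.28 in ISF (median 0.119) and at 0.0398 to 0.519 in SF (median 0.354), with no overlap with 0 hours. These levels rest on a median of 6 reads per library in ISF and 25 in SF, against 76 at 0 hours. The log2 fold changes from 0 hours were -1.09 ± 0.12 (FDR = 6.63e-12) and -0.92 ± 0.12 (FDR = 1.56e-09).

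*PROM1* was the most abundant of the progenitor surface genes, at 25.2 to 63.2 GeTMM before culture (median 36.9). At 48 hours it was at 4.37 to 20.8 in ISF (median 13.7) and at 3.28 to 22.5 in SF (median 8.56), with no overlap with 0 hours. The log2 fold change was -1.71 ± 0.50 in ISF (FDR = 0.00316) and -1.98 ± 0.50 in SF (FDR = 0.000805). In ISF the mean was then 9.45 ± 7.31 GeTMM (SD, n = 8) at 96 hours, 5.75 ± 4.63 at 6 days and 13.6 ± 9.32 (n = 7) at 10 days. In SF it was 11.4 ± 6.45, 9.89 ± 8.84 and 5.03 ± 2.65 at the same times. ISF libraries at 10 days spanned 0.756 (Catnip) to 30 (Ollie), and the value of Ollie lay within the range of the 0 hour libraries. SF libraries at 10 days spanned 0.84 to 7.69 and lay below every 0 hour library. Against 0 hours the log2 fold change at 10 days was -1.82 ± 0.50 in ISF (FDR = 0.00096) and -2.88 ± 0.50 in SF (FDR = 9.49e-07).

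Among the transcription factor genes, *GATA2*, which stem cells need to survive and expand, was at 0.234 to 3.76 GeTMM before culture (median 0.678), with Dealings far above the rest. The next highest library held 1.74. At 48 hours it was at 0.0208 to 0.615 in ISF (median 0.138) and at 0.0477 to 0.498 in SF (median 0.185). At 10 days the median was 0.0188 in ISF and 0.0217 in SF, and 3 of 7 libraries in each fluid held no read. The SF culture of Lurie was the exception, with 1.88 GeTMM (90 reads) against at most 0.115 in the other SF cultures. The summed level of 7 stromal genes was also highest in that library, at 4075 GeTMM against a median of 28.2 in the SF group at 10 days, and the part of this in the *GATA2* value was not tested. The log2 fold change from 0 hours was -0.69 ± 0.16 at 48 hours in ISF (FDR = 0.000308), -0.70 ± 0.16 in SF (FDR = 0.00032), -0.88 ± 0.16 at 10 days in ISF (FDR = 3.11e-06) and -0.69 ± 0.16 in SF (FDR = 0.000221). On the linear scale the ISF mean at 10 days was 3.9% of the 0 hour mean.

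*HOXA9*, a homeobox gene active in stem cells and early myeloid progenitors, was at 1.45 to 4.75 GeTMM before culture (median 3.03). In SF it was at 0.756 to 1.44 at 48 hours (median 0.915), below every 0 hour library, with a log2 fold change of -1.03 ± 0.20 (FDR = 2.62e-05). In ISF it was at 0.507 to 3.21 (median 1.77) and overlapped with 0 hours, with a log2 fold change of -0.67 ± 0.20 (FDR = 0.00428). That ISF call was lost without Catnip (-0.49, FDR = 0.0575), with a pseudocount of 0.1 (FDR = 0.0952) and with limma voom on reads (FDR = 0.0749). Ollie and RimRun were not lower than at 0 hours. At 10 days it was at 0 to 0.672 in ISF (median 0.173) and at 0 to 3.13 in SF (median 0.459), where Lurie again was highest. The log2 fold changes from 0 hours were -1.68 ± 0.20 (FDR = 6.78e-11) and -1.21 ± 0.20 (FDR = 5.41e-07).

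*MEIS1*, which encodes a homeobox cofactor of HOXA9, was the least abundant of the 9 genes at 0.113 to 0.875 GeTMM (median 0.621), a median of 13 reads per library. It was at 0.0352 to 0.268 at 48 hours in ISF (median 0.142) and at 0 to 0.338 in SF (median 0.162), which overlapped with the low 0 hour values of Lurie and Ollie. The log2 fold change was -0.40 ± 0.11 in ISF (FDR = 0.00121) and -0.38 ± 0.11 in SF (FDR = 0.00246). At 10 days the medians were 0.0834 and 0.0884, with log2 fold changes from 0 hours of -0.44 ± 0.11 (FDR = 0.000227) and -0.40 ± 0.11 (FDR = 0.000879). With a median of 2 reads per library at 10 days, its course between 48 hours and 10 days was not resolvable at this depth.

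*ERG*, an ETS factor of stem and endothelial cells, was at 10.3 to 22.8 GeTMM before culture (median 11.3), with Lurie highest. At 48 hours it was at 2.38 to 10.9 in ISF (median 6.15) and at 2.28 to 11.2 in SF (median 5.78), where Catnip was not lower than at 0 hours. The log2 fold change was -0.97 ± 0.35 in ISF (FDR = 0.0166) and -1.05 ± 0.35 in SF (FDR = 0.0118). The ISF call was lost without RimRun (-0.79, FDR = 0.0834) and with a pseudocount of 0.1 (FDR = 0.0557). At 10 days it was at 0.383 to 0.992 in ISF (median 0.771) and at 0.16 to 3.19 in SF (median 0.857), below every 0 hour library. The log2 fold changes from 0 hours were -2.97 ± 0.35 (FDR = 2.83e-11) and -2.85 ± 0.35 (FDR = 1.57e-10). Its mean in ISF was 5.71% of that at 0 hours, a smaller share than that of *CD34* or *PROM1*.

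*ITGA2B*, the alpha chain of the platelet fibrinogen receptor, was at 1.13 to 4.48 GeTMM before culture (median 2.69). At 48 hours it was at 0.564 to 1.82 in ISF (median 0.725) and at 0.804 to 1.24 in SF (median 0.984). The log2 fold change was -0.93 ± 0.15 (FDR = 2.29e-07) and -0.90 ± 0.15 (FDR = 7.83e-07). Its mean thereafter was 0.429 to 0.628 GeTMM in ISF and 0.752 to 1.03 in SF. At 10 days it was at 0.216 to 1.03 in ISF (median 0.596), below every 0 hour library, and at 0.423 to 1.54 in SF (median 0.715), where 5 of 7 libraries lay below. The log2 fold changes from 0 hours were -1.23 ± 0.15 (FDR = 4.26e-11) and -1.0 ± 0.15 (FDR = 1.87e-08).

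*GP9* had the highest mean of the 9 genes before culture, 58.4 ± 28.5 GeTMM (SD, n = 8), with libraries at 11 (Moon) to 104 (Lurie) and a median of 58.9. At 48 hours it was at 14.3 to 55.3 in ISF (median 23.2) and at 7.39 to 33.8 in SF (median 15.1). The SF value fell, with a log2 fold change of -1.51 ± 0.50 (FDR = 0.01). In ISF the change of -1.09 ± 0.50 was not called (FDR = 0.0604). It was called with horse as a block (FDR = 0.002), with voom on reads (FDR = 0.0193), with only the groups compared (FDR = 0.0244), and without Lurie (-1.14, FDR = 0.0496) or Moon (-1.38, FDR = 0.0119), the horse with the low 0 hour value. At 10 days *GP9* was at 0.1 to 2.07 in ISF (median 0.327) and at 0.117 to 6.59 in SF (median 0.852), below every 0 hour library. These levels rest on a median of 3 reads per library in ISF and 10 in SF, against 511 at 0 hours. The log2 fold changes from 0 hours were -5.11 ± 0.50 (FDR = 3.28e-14) and -4.49 ± 0.50 (FDR = 4.71e-12), the largest of the 9 genes in each fluid.

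The next comparisons asked whether the genes changed further between consecutive times. Of 54 such values, 3 were called, all lower. From 48 to 96 hours *HOXA9* fell in ISF (log2 fold change -0.76 ± 0.20, FDR = 0.00486), from a mean of 1.63 ± 0.939 GeTMM (SD, n = 7) to 0.543 ± 0.611 (n = 8). This was 1 of 9 genes, against 10.4% of all genes in ISF, while 0 of 9 were called in SF, against 15.8%. From 96 hours to 6 days *GP9* fell in ISF, from a median of 8.14 to 1.39 GeTMM (-1.57 ± 0.48, FDR = 0.035), as did 3.54% of all genes. That call was lost without Dealings, Dreamer, Flash, Lurie, Ollie or RimRun (FDR = 0.0507 to 0.132). It was also lost with voom on reads (FDR = 0.0731), with only the groups compared (FDR = 0.103) and with no filter on low values (FDR = 0.0612), and it was kept without Catnip or Moon. In SF 0 of 9 genes were called over that interval, against 1.61% of all genes. From 6 to 10 days *GP9* fell in SF, from a median of 7.09 to 0.852 GeTMM (-2.18 ± 0.50, FDR = 0.00584), as did 1.59% of all genes, and in ISF 0 of 9 genes were called, against 5.44%. With only the 2 groups in the fit, the fall in SF was not called (FDR = 0.127).

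With horse as a block in the fit 10 of the 54 values were called, all lower. The shares of all genes given above are those of the fit without the block, so that this count has no share beside it. The added calls were *CD34* in ISF from 48 to 96 hours (FDR = 0.0451), *HOXA9* in SF over the same interval (FDR = 0.0359), and *ERG* in ISF from 96 hours to 6 days (FDR = 0.0233). From 6 to 10 days *ERG* was added in ISF (FDR = 0.0291) and in SF (FDR = 0.00104). *GP9* was added in ISF from 48 to 96 hours (FDR = 0.00713) and from 6 to 10 days (FDR = 0.0121), so that in the blocked fit it was lower over each later interval in ISF. Without the block, leaving out 1 horse brought *GP9* in ISF from 48 to 96 hours past the threshold without Catnip (-1.45, FDR = 0.0347) or Lurie (-1.42, FDR = 0.0409), against -1.32 (FDR = 0.0531) with all horses. It also passed when only the 6 day SF library of Moon was left out (-1.32, FDR = 0.0415). *ERG* in SF from 6 to 10 days passed it without Dealings (-1.20, FDR = 0.0398) or Flash (-1.17, FDR = 0.049), against -1.10 (FDR = 0.0526). For the intervals with no call among the 9 genes, those at an unadjusted p under 0.05 in limma were counted beside all 14570 genes tested. In SF there was 1 from 48 to 96 hours (5343 of all genes) and 0 from 96 hours to 6 days (2448). In ISF there were 2 from 6 to 10 days (3195), and voom called 0 in each interval. The 2 were *GP9* (log2 fold change -1.14, FDR = 0.147) and *PROM1* (1.16, 95% interval 0.16 to 2.16, FDR = 0.143). The *PROM1* value passed the threshold without Catnip (1.62, FDR = 0.0279).

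The comparison of the fluids asked whether inflamed fluid altered the levels at each time. At 48 hours 0 of the 9 genes differed, against 1.68% of all genes, and at 96 hours 0 of 9, against 10.5%. None of the 9 had an unadjusted p under 0.05 at these times in limma, and voom called 0. Of all 14570 genes tested, 2035 and 3502 had such a p. At 6 days 2 of 9 differed, both lower in ISF, against 30.2% of all genes in either direction and 13.6% lower in ISF. At 10 days 0 of 9 differed by limma or voom, against 20.8% of all genes. An unadjusted p under 0.05 in limma was reached by 2 of 9, and by 4755 of all 14570 genes.

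*ITGA2B* at 6 days was at 0.182 to 0.701 GeTMM in ISF (median 0.438) and at 0.514 to 1.41 in SF (median 1.09). It was lower in ISF in 8 of 8 horses, and the groups overlapped only through the SF value of RimRun, the lowest of its group. The difference was -0.50 ± 0.14 (SE) on the log2 scale (95% interval -0.79 to -0.22, FDR = 0.00475), and within horses it ranged from -0.79 (Lurie) to -0.05 (Catnip). *GP9* was at 0.233 to 11.2 GeTMM in ISF (median 1.39) and at 2.15 to 32.3 in SF (median 7.09), with the highest values in Lurie in ISF and Catnip in SF. It too was lower in ISF in 8 of 8 horses, by -3.23 (Moon) to -0.55 (Dealings), and the fitted difference was -1.66 ± 0.48 (95% interval -2.62 to -0.70, FDR = 0.00584). Both calls held in all 15 alternative fits, with an FDR of 0.00105 to 0.021 for *ITGA2B* and 5.76e-05 to 0.0455 for *GP9*. The size depends on the 1 added before the logarithm, since the *ITGA2B* difference was -1.13 with a pseudocount of 0.1 and -1.31 with voom on reads, and that of *GP9* -2.19 and -2.24. With 1 added, the *ITGA2B* difference was under a limit of 1 on the log2 scale. Without the SF library of Moon the differences were -0.48 (FDR = 0.0081) and -1.55 (FDR = 0.0115).

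Marker genes of other cells are set beside these values at 6 days. The summed neutrophil precursor genes had a median of 192 GeTMM in ISF (2.76 to 2393) and 1613 in SF (89.4 to 4799), the T cell genes 32.4 (8.57 to 47.3) and 129 (28.6 to 228), and the B cell genes 10.2 (1.29 to 29.6) and 55.3 (11.8 to 115). Macrophage genes had a median of 58758 GeTMM (14661 to 100396) and 37453 (20627 to 99905). Most of this sum was *SPP1* (means of 42763 and 24424), which was not called (0.58, FDR = 0.497). Of the 7 macrophage genes 1 was called higher in ISF (*MSR1*, 2.27) and 1 lower (*GPNMB*, -1.30, FDR = 0.000379). Erythroid genes were near the limit in both, with medians of 0.841 (0.285 to 1.41) and 1.25 (0.927 to 12). The part of these cells in the levels of *ITGA2B* and *GP9* was not tested.

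For the other 7 genes the 95% interval of the difference at 6 days included 0. It was -0.65 to 0.33 for *CD34*, -0.42 to 0.05 for *KIT*, -0.45 to 0.19 for *GATA2*, -0.39 to 0.02 for *MEIS1* and -0.41 to 0.38 for *HOXA9*. For *ERG* it was -1.25 to 0.11 and for *PROM1* -1.71 to 0.22. For genes mostly below 1 GeTMM these intervals are narrow because 1 was added, and they set no bound on the fold. With voom on reads the difference at 6 days was -1.79 for *GATA2* (FDR = 0.13), -1.29 for *MEIS1* (FDR = 0.174) and -0.79 for *CD34* (FDR = 0.449), none of them called. In limma the *MEIS1* difference was -0.18, and -0.07 (FDR = 0.582) without the SF library of Moon. *KIT* was lower in ISF in 6 of 7 horses at 48 hours, 5 of 8 at 96 hours, 7 of 8 at 6 days and 4 of 7 at 10 days, by 0.17 to 0.18 on average at each time (log2 differences of -0.17 at 48 hours, 96 hours and 10 days and -0.18 at 6 days). None of these was called (FDR = 0.252 to 0.602). Without the SF library of Moon the *KIT* difference at 6 days was -0.25 (FDR = 0.092).

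At 10 days *PROM1* was higher in ISF in 6 of 7 horses, with a mean of 13.6 GeTMM against 5.03 in SF, a log2 difference of 1.05 ± 0.52 (95% interval 0.02 to 2.09) that was not called (FDR = 0.143). Catnip was the exception, at 0.756 in ISF and 7.69 in SF, and without Catnip the difference was 1.62 (FDR = 0.0219). *HOXA9* was lower in ISF at 10 days, by -0.48 ± 0.21 (95% interval -0.90 to -0.05, FDR = 0.102), in 4 of 7 horses, with Lurie at -1.92. It was called without Moon (-0.59, FDR = 0.0347). No further value of the 36 passed the threshold when a horse was left out.

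**Figure D2:**
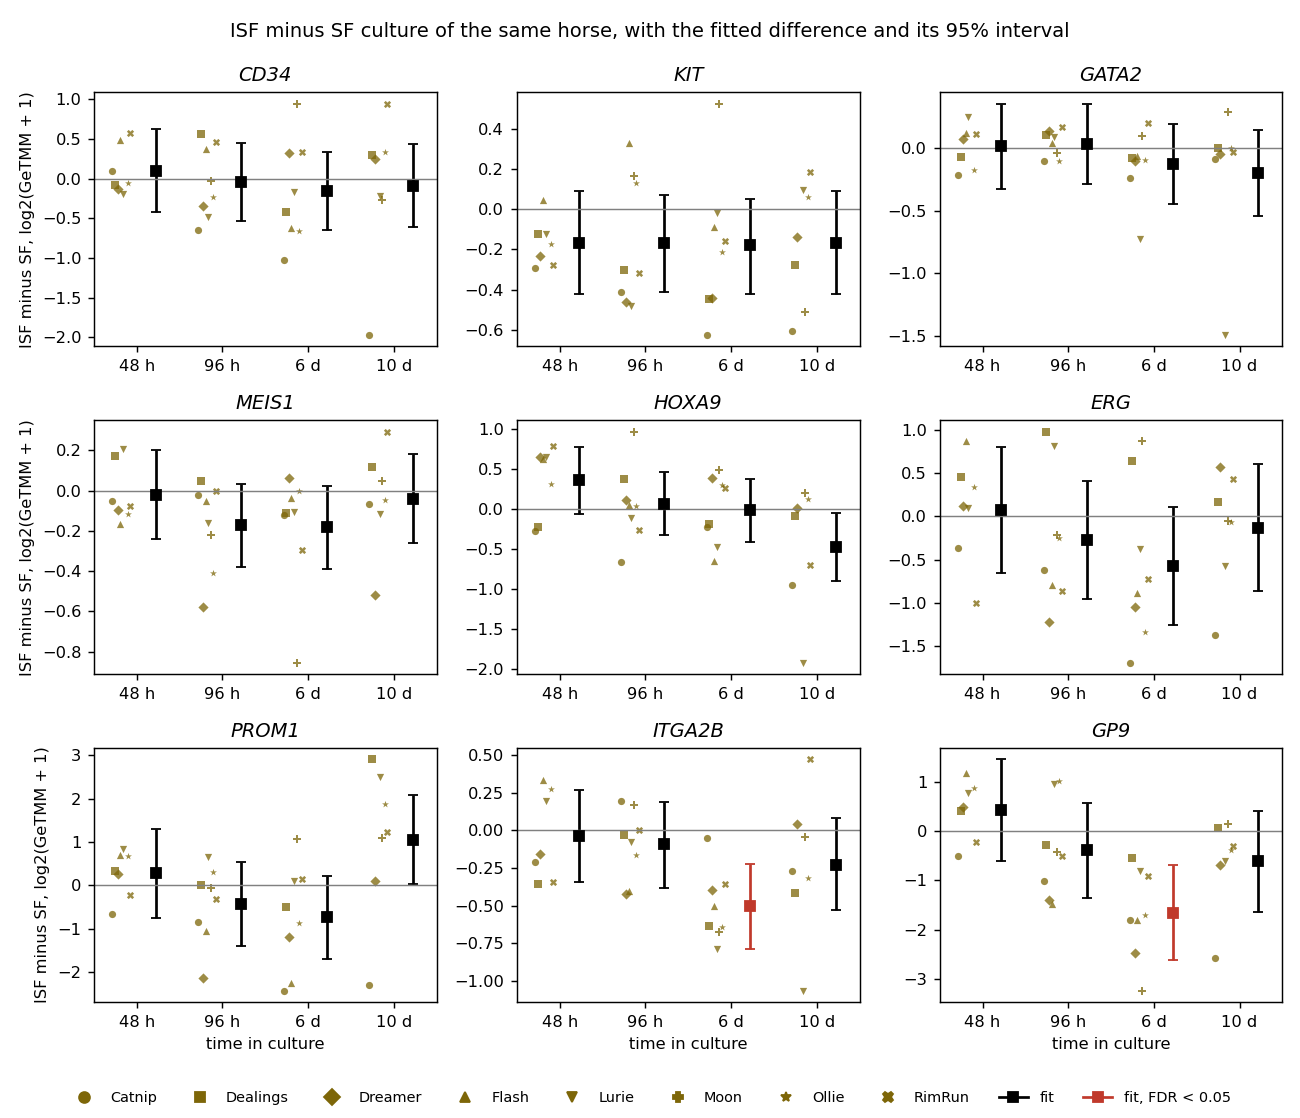
ISF minus SF within each horse on the log2(GeTMM + 1) scale (vertical axis) (brown symbols) by time (horizontal axis), with the fitted difference and its 95% interval (squares, red where the FDR is under 0.05). At 6 days every horse lies below 0 for *ITGA2B* and *GP9*, and at 10 days 6 of 7 horses lie above 0 for *PROM1*.

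Interaction terms tested whether the effect of the fluid changed between consecutive times. None of the 9 genes was called from 48 to 96 hours (0.0206% of all genes called), from 96 hours to 6 days (0%) or from 6 to 10 days (0.226%), and voom called 0. At an unadjusted p under 0.05 in limma there were 0, 1 and 1 of the 9, against 806, 881 and 1989 of all 14570 genes. Those of the 9 were *ITGA2B* from 96 hours to 6 days (-0.41, 95% interval -0.82 to -0.01, FDR = 0.781) and *PROM1* from 6 to 10 days (1.80, 95% interval 0.38 to 3.21, FDR = 0.219). For *GP9* the change from 96 hours to 6 days was -1.27 (95% interval -2.63 to 0.09, FDR = 0.781). The differences seen at 6 days for *ITGA2B* and *GP9* are therefore not shown to be absent at the other times.

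The partner chains of both platelet receptors had other levels than *GP9* and *ITGA2B*, and they are named here for their partners, after their values were seen. *GP9* had a mean of 58.4 GeTMM at 0 hours, while *GP1BB* was at 4.82, *GP1BA* at 0.403 and *GP5* at 0.0807. *GP1BB*, the beta chain bound to GP1BA, fell in both fluids by 48 hours (log2 fold change -2.12 in ISF, FDR = 4.05e-13, and -1.60 in SF, FDR = 3.77e-09), and it was at 0 in every ISF library at 10 days. *GP1BA*, the chain that binds von Willebrand factor, changed by 0.00 in ISF and by -0.18 in SF at 10 days (FDR = 0.976 and 0.177). *ITGB3*, the beta chain that pairs with ITGA2B and, in other cells, with the integrin alpha v, was at 2.83 GeTMM before culture and rose by 10 days, to 81 in ISF and to 26.9 in SF (log2 fold changes 4.25, FDR = 1.9e-15, and 2.72, FDR = 6.3e-09). It was higher in ISF at 6 days (1.79, FDR = 0.000136), when *ITGA2B* was lower.

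**Figure D3:**
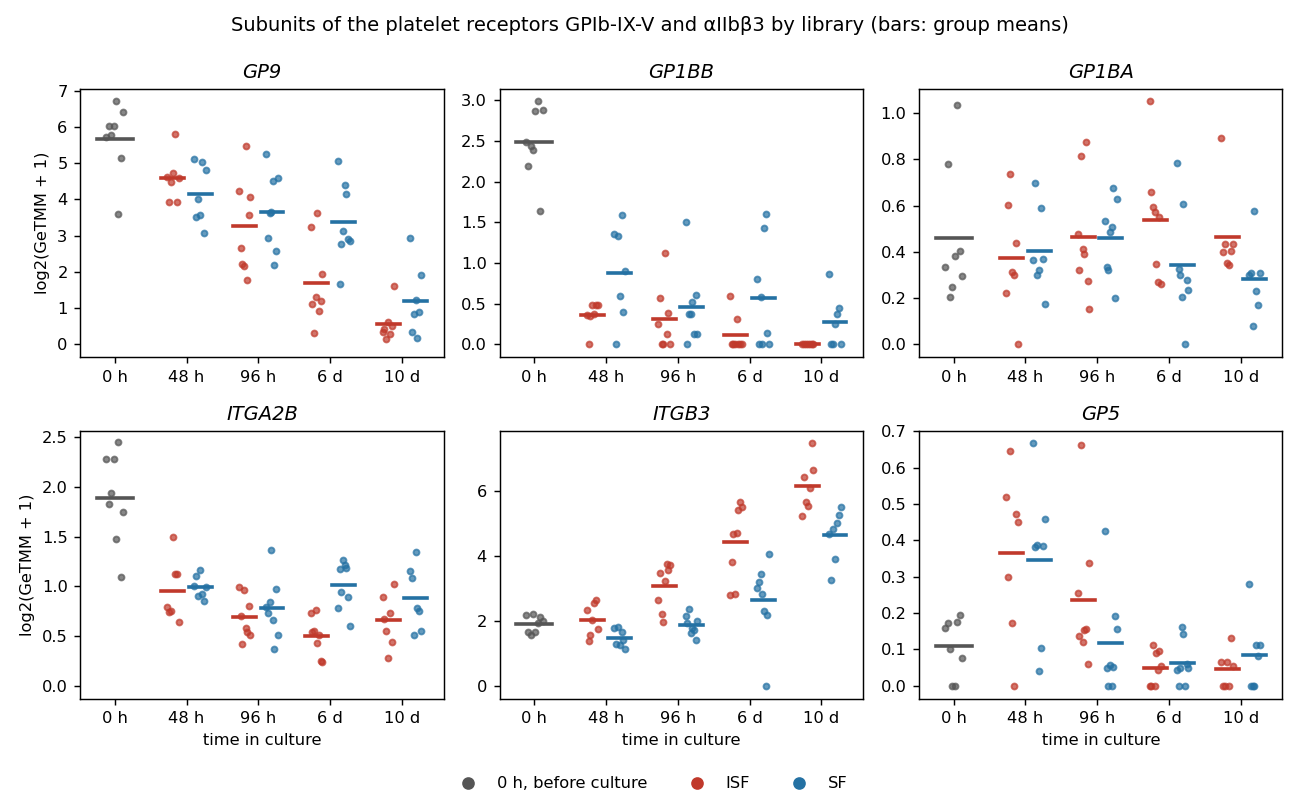
Levels of the subunits of the platelet receptor for von Willebrand factor (GP9, GP1BB, GP1BA and GP5) and for fibrinogen (ITGA2B and ITGB3) in every library as log2(GeTMM + 1) by time in culture, with group means as bars and each panel on its own scale. *ITGB3* rises to 81 GeTMM in ISF while *ITGA2B* falls, and *GP1BA* and *GP5* reach at most 1.07 and 0.59 GeTMM in any library.

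Of the 21 megakaryocyte and platelet genes listed for comparison, 20 were in the table and 11 were tested. At 10 days 6 fell and 3 rose in ISF (38.4% and 36.1% of all genes), and 5 fell and 3 rose in SF (34.9% and 34.7%), with a median of -1.97 and -0.46 against -0.03 and -0.01 over all genes. The most abundant were *PPBP*, a platelet chemokine, *PLEK*, an actin regulator of platelets and leukocytes, *SELP* (P-selectin) and *NFE2*, a factor for platelet release. *PPBP* was at 738 GeTMM before culture and fell to 3.82 in ISF and to 16.4 in SF (log2 fold changes -7.55, FDR = 1.19e-11, and -6.24, FDR = 4.59e-09). *NFE2* fell from 216 to 1.42 and 9.28 (-6.56 and -5.14). *SELP* was higher at 48 hours than before culture in both fluids (1.44, FDR = 0.000962 in ISF, and 1.42, FDR = 0.00135 in SF) and lower at 10 days (-4.35 and -4.55). *PLEK* rose at 48 hours (0.74, FDR = 0.00116 in ISF, and 0.97, FDR = 3.82e-05 in SF). Besides *ITGB3*, those called higher at 10 days were *TREML1* in both fluids (0.82 and 1.17), *PLEK* in ISF (0.50) and *RAB27B* in SF (0.71). At 6 days *PPBP* was lower in ISF than in SF (-3.14, FDR = 0.00286), while *PLEK* and *ITGB3* were higher. Several genes of megakaryocytes were low before culture, with means at 0 hours of 0.819 GeTMM for *TUBB1* (a platelet tubulin), 0.259 for *VWF* and 0.079 for *GP6* (a collagen receptor).

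*GP9* was most alike, over the 68 libraries, to *ICA1*, *FUT7* (a fucosyltransferase of leukocyte selectin ligands) and *TIE1* (a receptor kinase of endothelial and blood stem cells), with Pearson correlations of 0.90, 0.90 and 0.89 on log2(GeTMM + 1). *FUT7* had a mean of 95.2 GeTMM before culture, and by 10 days one of 0.757 in ISF and of 3.63 in SF. *ERG* was alike to *FAR2* (0.96) and *DACH1* (0.95), and *GP9* and *ERG* had a correlation of 0.86 with each other, the highest among the 9 genes. *GP9*, *ERG* and the neutrophil precursor genes were highest in the same horses in several groups. In ISF at 48 and 96 hours the horse was Lurie for all of them, and in SF at 48 hours, 96 hours and 10 days it was Catnip. These libraries share horse, fluid and time, and the correlations are a description of them with no test.

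**Figure D4:**
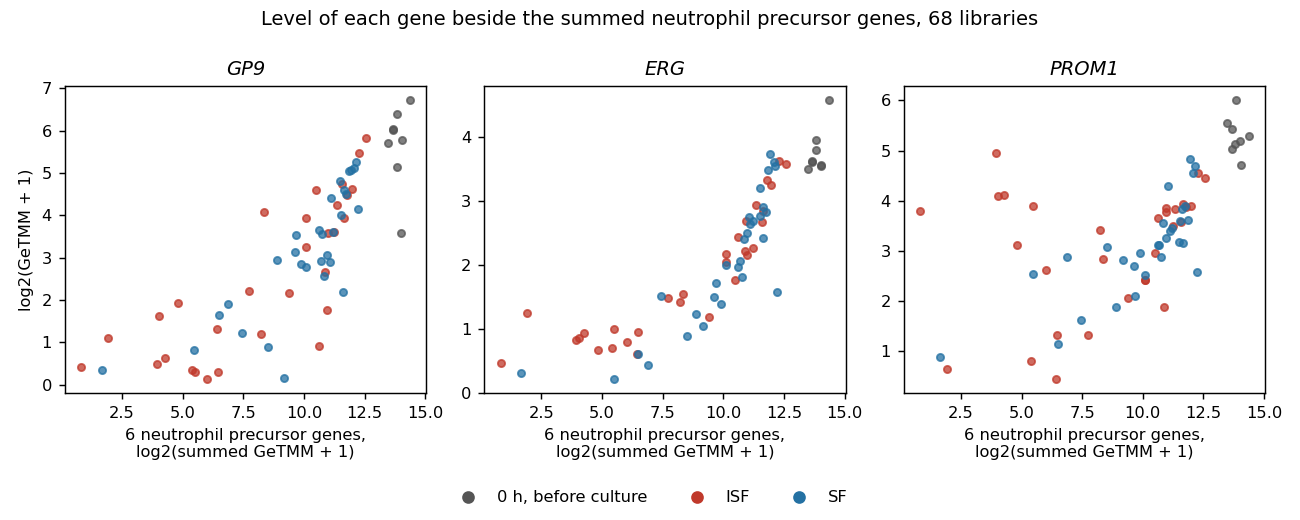
Level of *GP9*, *ERG* and *PROM1* in each of the 68 libraries (vertical axis, log2(GeTMM + 1)) beside the summed level of 6 neutrophil precursor genes (horizontal axis, log2 of the summed GeTMM + 1). The 0 hour libraries lie at the right of each panel. For *GP9* that of Moon (11 GeTMM) lies lower than every ISF library at 48 hours (14.3 to 55.3). The ISF libraries at 10 days, where the precursor genes had a median of 18.2 GeTMM, lie at the left with *PROM1* at up to 30 GeTMM.

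The other genes were most alike to the following. For *CD34* these were *RIC3* (0.81), *ZNF341* (0.80) and *TAL1* (0.79), for *KIT* *BCORL1* (0.86), *CCDC88C* (0.85) and *SMIM5* (0.85), and for *HOXA9* *ADGRG1* (0.81), *UNKL* (0.79) and *PLEKHN1* (0.79). *GATA2* was most alike to *CACHD1* (0.80), *LDB2* (0.78) and *KCNK5* (0.78), and *MEIS1* to *ARMH2*, *TSPAN1* and *CHKB* (0.70 each). *PROM1* was most alike to *ZNF114* (0.84), *N4BP3* (0.81) and *FZD6* (0.80), and *ITGA2B* to *PLXNB1* (0.89), *FAM193B* (0.85) and *ARMC12* (0.85). The mean of each gene named here as alike was lower at 10 days than at 0 hours in both fluids, for instance that of *TAL1*, a stem cell and erythroid factor, from 8.31 GeTMM to 0.109 and 0.245 and that of *ADGRG1*, which encodes an adhesion receptor of stem cells, from 10.6 to 0.657 and 0.917.

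Of 15 transcription factors that act with GATA2 and ERG, 14 were tested. In ISF 10 fell by 48 hours and 12 by 10 days (27.4% and 38.4% of all genes), and in SF 8 fell by each time (23.1% and 34.9%), while *LMO2* was the only one to rise, in SF at 10 days. The median at 10 days was -1.67 in ISF and -0.94 in SF. The most abundant were *LMO2*, a bridge between such factors, *FLI1*, an ETS factor, *IKZF1*, a lymphoid factor, and *LYL1*, a relative of TAL1. *LMO2* was at 129 GeTMM at 0 hours and at 132 in ISF and 168 in SF at 10 days (-0.01, FDR = 0.959, and 0.38, FDR = 0.0154). *FLI1* fell from 159 to 34.8 and 64.6 (-2.19 and -1.31), and *IKZF1* from 129 to 7.04 and 23.3 (-4.06 and -2.51). *LYL1* fell in ISF alone by this threshold (-0.64, FDR = 0.00122, and -0.05, FDR = 0.808), and it was lower in ISF than in SF at 10 days (-0.59, FDR = 0.0172). At 6 days 5 of the 14 were lower in ISF than in SF (13.6% of all genes) and at 10 days 7 (10.8%), with 0 called higher at either time.

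Of 12 HOX genes and cofactors of HOXA9 and MEIS1, 6 were tested. In each fluid 4 fell by 48 hours (27.4% of all genes in ISF and 23.1% in SF) and 4 by 10 days (38.4% and 34.9%). In SF 1 rose by 48 hours, and 1 rose by 10 days in each fluid (36.1% of all genes in ISF and 34.7% in SF). *PBX2* and *PBX3*, partners of HOX proteins, fell from 111 to 25.4 and 29.2 GeTMM (-2.09 and -1.90) and from 18.9 to 5.61 and 4.81 (-1.60 and -1.78). *HOXB4* was at 1.78 GeTMM at 0 hours and changed by -0.01 and 0.25 (FDR = 0.967 and 0.299).

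Further progenitor markers (14 of 18 in the table, 10 tested) gave 7 that fell and 2 that rose by 10 days in each fluid (38.4% of all genes fell and 36.1% rose in ISF, 34.9% and 34.7% in SF), with a median of -1.59 in ISF and -1.16 in SF. *THY1* (CD90) fell from 4191 GeTMM to 157 and 229 (-5.00 and -5.37), *CSF3R*, the receptor of the granulocyte growth factor, from 625 to 15.3 and 25.8 (-5.51 and -5.38) and *HOPX*, a homeodomain gene, from 62.3 to 1.2 and 6.79 (-4.74 and -3.17). *CDK6*, a cell cycle kinase of progenitors, rose from 4.9 to 17.8 and 9.96 (1.68 and 0.84), and *CD109* from 2.18 to 15.4 and 13.9 (2.34 and 2.23). At 10 days *CDK6* was higher in ISF than in SF (0.85, FDR = 0.021), while *HOPX* and *FLT3* were lower. At 6 days *CDK6* was higher (1.41, FDR = 1.96e-05) and *FLT3*, a receptor of early progenitors, lower in ISF (-1.45, FDR = 2.99e-06).

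Of 11 ligands and receptors of progenitor growth, 8 were in the table and 6 tested, of which 6 fell in ISF (38.4% of all genes) and 5 in SF (34.9%) by 10 days, with a median of -2.04 and -1.45. *KITLG*, the ligand of KIT, was at 1.54 GeTMM at 0 hours and at 0.071 to 0.401 in the cultured groups (log2 fold change at 48 hours -1.18 in ISF, FDR = 1.15e-07, and -1.16 in SF, FDR = 2.43e-07). It is named as the ligand of KIT, chosen after its values were seen. *CXCL12*, the chemokine that holds progenitors in the marrow, fell from 15.3 GeTMM to 0.093 (ISF) and 8.98 (SF) by 10 days (-3.84 and -1.91), and its receptor *CXCR4* from 415 to 121 and 243 (-2.04 and -0.76). The SF libraries at 10 days differed widely in *CXCL12*, with an SD of 14 GeTMM, larger than their mean. *IL6R* fell from 298 to 8.48 and 31 (-4.98 and -3.37). *IL6ST*, its partner chain, rose in SF by 48 hours (0.86, FDR = 0.000526) and fell in ISF by 10 days (-0.51, FDR = 0.024).

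Mast cell and basophil genes were examined because such cells also carry KIT and GATA2. Of 11 genes 9 were in the table and 7 tested, and 5 fell and 2 rose in ISF by 10 days (38.4% and 36.1% of all genes), against 4 and 2 in SF (34.9% and 34.7%). *CPA3*, a mast cell protease, did not exceed 0.119 GeTMM in any library. *FCER1A*, a chain of the IgE receptor, fell from 32.5 to 11.8 and 6.14 (-1.67 and -2.56), and *GATA1*, which is shared with erythroid cells, from 19.2 to 0.216 and 0.226 (-3.58 and -3.56). *HPGDS*, a prostaglandin D synthase also made by macrophages, and *ENPP3* rose (1.70 and 4.19, and 1.44 and 1.84), and *CMA1* rose at 48 hours in ISF (0.50, FDR = 2.27e-05) before it fell. The 10 endothelial genes, which would accompany CD34 and ERG in vessel cells, did not share a level. *CDH5* was at most at 0.514 GeTMM in any library, *KDR* at most at 0.623, and *SOX17* was listed at 0 throughout. *TIE1*, *ROBO4* and *TEK* were at 5.97, 5.1 and 4.14 GeTMM at 0 hours, close to *CD34* at 5.16, and *CLDN5* was at 0.983. *EMCN* rose in SF by 10 days, from 0.366 to 11.7 GeTMM (3.04, FDR = 3.67e-11), and *PLVAP* reached 12.2 in 1 library. The summed endothelial list of 10 genes was at 139 to 171 GeTMM at 0 hours and 39.5 to 86.5 at 10 days, most of it from *PECAM1* (138 at 0 hours), which leukocytes share. The part of these cells in the levels of the 9 genes was not tested.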

How the data were processed

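RNA sequencing of 68 BMNC libraries was analysed. The authors trimmed reads with TrimGalore, mapped them with STAR 2.7.2a to EquCab 3.0, counted them per Ensembl gene and deposited GeTMM values, which resemble RPKM values (reads per kilobase) with TMM scaling between libraries. The authors tested expression with DESeq2. The reads were stranded, and which strand setting was counted is not given in the sources used here. *GATA2*, *MEIS1*, *ERG* and *PROM1* overlap another annotated gene in the RefSeq table of another horse assembly, so their reads may be shared.

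Whole reads were recovered from the steps of the GeTMM values, within 0.02 reads for all 24065 genes above 0, up to a common factor per library. They set the depth (15.7 to 36.0 M per library). Intervals and SEs rest on the spread of libraries of different horses around their group means, pooled over all 9 groups. Libraries of the same horse were treated as independent, so that the SEs do not measure the spread of differences within horses. A gene entered the test if 7 or more libraries reached 0.5 GeTMM, which 14570 genes did. Their log2(GeTMM + 1) values were fitted by limma 3.58.1 (R 4.3.3, moderated with a trend) over all 9 groups at once and without a term for horse, two-sided, with a Benjamini-Hochberg FDR under 0.05 over all genes of a comparison. Libraries with the same replicate number come from the same horse. The deviations from the group means of the 2 cultures of a horse at a given time (ISF and SF) correlated over 0.1 in 26 of 30 pairs (median 0.36), and horse as a block was an alternative. On simulated data the fit was tested before use. Other alternatives were a pseudocount of 0.1, no filter, only the groups compared, limma voom on the recovered reads, an added limit of 1 on the log2 fold change, leaving out each horse, and leaving out the 3 libraries in doubt. Nothing of the table was left out.

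All 9 genes are named. Of each list the 4 tested genes with the highest mean, and genes called against most of their list, are named, and for each of the 9 genes the 3 most alike over the 68 libraries. A few genes that this rule names are not reported here. Marker genes are named where a result moves with them. The 9 genes and all lists were chosen with earlier results of these data known. Python 3.11.15 with pandas 2.3.3, numpy 2.4.6 and matplotlib 3.10.9 made the tables and figures.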

Additional observations from a re-analysis of the deposited data

Results flagged for a closer look

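In 21 of 81 groups of libraries (9 genes in 9 groups each) 1 library stood apart by Dixon's test on GeTMM. The test took no logarithm, and the library was the highest of its group each time. Chance gives about 1 in 20 groups only where values are normally distributed, which was not tested for these levels. The count of 21 is therefore not read as more than chance would give. Lurie gave 6 of the 21, Catnip and RimRun 5 each, Moon 3, and Dealings and Dreamer 1 each.

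For *CD34* these were RimRun in ISF at 10 days (3.24 GeTMM, the next library at 1.0) and Catnip in SF at 10 days (3.6, next 1.23). For *KIT* it was Catnip in SF at 48 hours (1.56, next 0.755), and for *PROM1* Catnip in SF at 48 hours (22.5, next 11.2).

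*GATA2* gave 6, namely Dealings at 0 hours (3.76, next 1.74), RimRun in SF at 48 hours (0.498, next 0.212) and in ISF at 6 days (0.149, next 0.066), Lurie in SF at 6 days (0.652, next 0.182) and 10 days (1.88, next 0.115), and Moon in ISF at 10 days (0.215, next 0.0499). The values of RimRun at 6 days and Moon at 10 days rest on 7 and 10 reads. *MEIS1* stood apart in Moon in SF at 6 days (1.05, next 0.235), in the library that lay far from its group over all genes, and in Dreamer in SF at 10 days (0.596, next 0.179). *HOXA9* did so in RimRun in SF at 48 hours (1.44, next 0.98), Moon in ISF at 96 hours (2.0, next 0.555) and Lurie in SF at 10 days (3.13, next 1.26).

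For *ERG* the libraries were Lurie at 0 hours (22.8, next 14.6) and Catnip in SF at 6 days (12.3, next 5.71). For *GP9* they were Lurie in ISF at 48 hours (55.3, next 25.5) and 96 hours (43.3, next 17.9), RimRun in ISF at 10 days (2.07, next 0.538) and Catnip in SF at 10 days (6.59, next 2.78).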

How the results depend on the processing

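Of the 40 called values of the 9 genes, 36 kept their call in all 15 alternative fits and none changed sign. The 18 values from 0 hours to 10 days were called in each fit, and 13 of them passed an added limit of 1 on the log2 fold change. From 0 to 48 hours 17 of 18 were called, 16 to 18 when a horse was left out, 18 with the replicate block of horses and 7 with a limit of 1 on the log2 fold change. Over the later intervals 3 of 54 were called, 5 with a pseudocount of 0.1, 10 with the replicate block and 2 to 5 when a horse was left out. Between the fluids 2 of 36 were called, also with the block, 2 to 3 when a horse was left out and 1 with the limit of 1. No change of the difference between the fluids was called in any fit, the block included. The causes were not tested.

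Of the 34 uncalled differences between the fluids, 12 changed sign, none of them with a call. When a horse was left out, *CD34* ranged from -0.13 to 0.04 at 96 hours and from -0.26 to 0.22 at 10 days, *GATA2* from -0.03 to 0.05 at 48 hours and from -0.28 to 0.02 at 10 days, and *MEIS1* from -0.06 to 0.01 and from -0.10 to 0.04 at these times. *HOXA9* ranged from -0.07 to 0.17 at 96 hours and from -0.09 to 0.08 at 6 days, *ERG* from -0.06 to 0.25 at 48 hours and from -0.25 to 0.08 at 10 days, and *ITGA2B* from -0.10 to 0.02 at 48 hours. With voom the sign changed for *CD34* at 96 hours (0.06) and 10 days (0.04), *GATA2* (-0.19) and *MEIS1* (0.08) at 48 hours and *ERG* at 10 days (0.05). With a pseudocount of 0.1 it changed for *GATA2* at 48 hours (-0.03). With the pair of 96 hour ISF libraries in doubt (Dealings, Dreamer) left out it changed for *CD34* (0.07) and *PROM1* (0.04) at that time.

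Depth limits *MEIS1*, *GATA2* and *HOXA9*, which had a median of 0 to 6 reads per library at 6 and 10 days. It also limits single groups of other genes. In ISF the median was 3 reads for *GP9* and 6 for *KIT* at 10 days, and 5 for *CD34* at 6 days.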
